A study of Mus musculus with 15 samples.

Results

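The RNA of 10 integrin chains was followed in bone marrow-derived macrophages (BMDMs) with and without STAT5. The genes were picked by name and are 7 alpha chains (Itgam, Itgax, Itgal, Itga4, Itga5, Itga6 and Itgav) and 3 beta chains (Itgb1, Itgb2 and Itgb5), out of 55385 genes in the count table, and each of the 10 was among the 13005 genes that passed the low-count filter. BMDMs came from BALB/c mice whose age is labelled 6 weeks. STAT5 fl/fl mice carry floxed Stat5 alleles, and STAT5 cKO mice come from their cross with Csf1r-iCre mice, which have a Cre transgene driven by the promoter of the M-CSF receptor that the study describes as active in myeloid cells and in some splenic lymphocytes. Cells of both genotypes were kept for 2 h in serum-free DMEM, in 20 ng/mL recombinant mouse GM-CSF (rmGM-CSF) or in conditioned medium of 4T1 cells (4T1 CM), a BALB/c mammary carcinoma line. The STAT5 fl/fl groups hold 2 libraries each, from mice 112 and 113, because 1 replicate was dropped by the study in quality control, and the STAT5 cKO groups hold 3 each, from mice 114, 115 and 116. The number that opens each sample title is read here as the mouse, so that each mouse gave 1 library per medium.

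Depth ran from 16016736 to 22883108 counted fragments over the 15 libraries. Stat5a had 637 to 918 counts in STAT5 fl/fl libraries and 0 to 3 in STAT5 cKO libraries, and Stat5b had 977 to 1654 and 0 to 4. All 7 macrophage markers were detected in every library. In CPM (counts scaled by the normalized library size) Csf1r ranged from 3825 to 4204, Cd68 from 1550 to 2033, Lyz2 from 17036 to 34471, Adgre1 from 769 to 1761, Cd14 from 801 to 3952, Fcgr1 from 101 to 468 and Mertk from 12.6 to 43.2. Summed markers of B cells, T cells and neutrophils stayed at or below 2.46 CPM, those of megakaryocytes at or below 2.79 CPM and those of epithelium at or below 4.34 CPM. Dendritic cell markers summed to 9.12 to 10.7 CPM in STAT5 fl/fl with rmGM-CSF and to at most 3.64 CPM in the other groups, and stromal markers 13.1 CPM, led by Pdgfrb. The endothelial sum of 53.8 to 126 CPM came from Kdr, while Cdh5 and Tek stayed at or below 0.779 CPM. A change of RNA in these bulk libraries can be fewer cells of a type or less RNA per cell, and these cannot be told apart.

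Integrins are receptors for matrix and for other cells, made of 1 alpha and 1 beta chain, and a beta chain that finds no partner is as a rule kept inside the cell. In macrophages the leukocyte chain Itgb2 (CD18) pairs with Itgam (CD11b, giving Mac-1), Itgax (CD11c) and Itgal (CD11a, giving LFA-1). Between them, though not each of them all, these integrins bind ICAMs, fibrinogen and complement fragment iC3b. Itgb1 (CD29) pairs with Itga4 (CD49d, VLA-4, binding VCAM-1 and fibronectin), Itga5 (CD49e, the classical fibronectin receptor) and Itga6 (CD49f, a laminin receptor). Itgav (CD51) pairs with Itgb1, Itgb5 and other beta chains and binds proteins with the RGD motif, such as vitronectin and thrombospondin. GM-CSF signals through JAK2 to STAT5, and CD11c is widely used as a marker of cells grown in GM-CSF.

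Per kilobase of exon, the scale used to set genes against each other, the beta chains were the most abundant of the 10 in DMEM. This length sums all annotated exons of a gene and not those of the expressed transcript. It ran from 3052 bp for Itgb2 to 13978 bp for Itga4, and the order depends on it. In plain CPM, STAT5 fl/fl means in DMEM put Itgb1 (635) above Itgb2 (552), and Itga4 (251) above Itga5 (189) and Itgam (127). In STAT5 fl/fl BMDMs in DMEM, Itgb2 stood at 181 ± 0.276 CPM per kb (SD, n = 2), Itgb1 at 156 ± 2.37 and Itgb5 at 105 ± 4.89, and the ranges of these chains did not overlap. Itga5 was the highest alpha chain at 38.4 ± 1.12 CPM per kb, followed by Itgam at 25.2 ± 0.295. Itga4 at 18.0 ± 0.638 and Itgav at 17.6 ± 0.138 overlapped in range. Itga6, Itgal and Itgax closed the order, down to 4.31 ± 0.999 CPM per kb for Itgax. This order of means was found in STAT5 cKO BMDMs in DMEM, where the ranges of Itgam and Itga4, and of Itga6, Itgal and Itgax in turn, overlapped.

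The order changed with the medium, mostly through Itga5. Itga5 was in the fourth place in DMEM in both genotypes. It was in the third place, above Itgb5, in STAT5 fl/fl BMDMs with rmGM-CSF (138 ± 1.02 CPM per kb) and with 4T1 CM (159 ± 9.30), and in STAT5 cKO BMDMs with rmGM-CSF (150.4 ± 4.11). In STAT5 cKO BMDMs with 4T1 CM it passed Itgb1 as well, at 202 ± 7.76 CPM per kb (SD, n = 3) against 174 ± 5.57 for Itgb1, with no overlap of the libraries. Per kb, Itgb2 had the highest mean in every group but STAT5 fl/fl with rmGM-CSF, where Itgb1 and Itgb2 overlapped. Together the 10 genes took 0.261% to 0.281% of all counts in DMEM, 0.292% to 0.345% with rmGM-CSF and 0.352% to 0.406% with 4T1 CM.

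**Figure D1:**
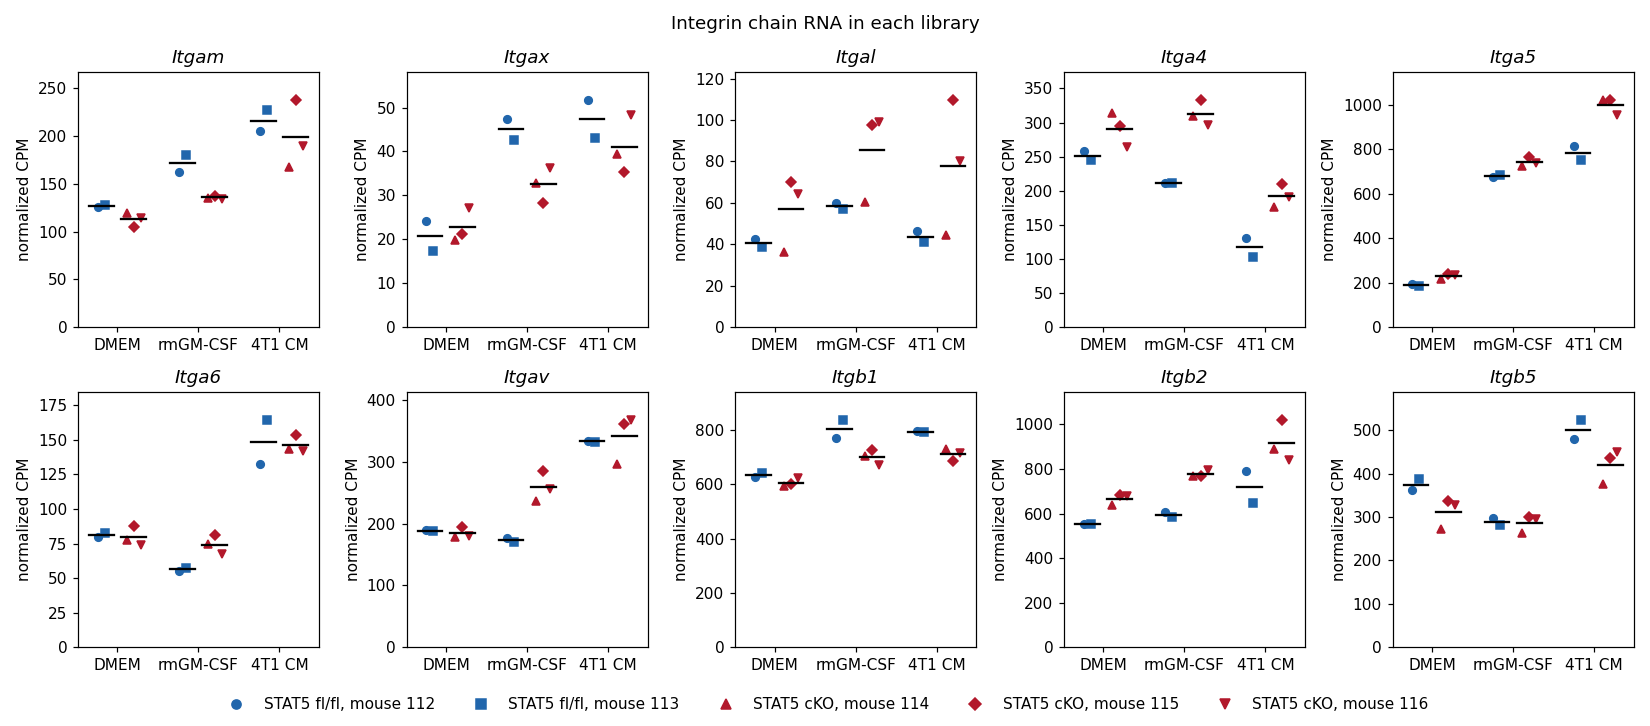
Normalized CPM of each of the 10 integrin chains in the 15 libraries, with 1 point per library, the marker shape giving the mouse, blue for STAT5 fl/fl and red for STAT5 cKO, and a black bar at the group mean. Itga5 rose from at most 237 CPM in DMEM to at least 677 with either stimulus, Itga4 was lowest with 4T1 CM in both genotypes, and mouse 114 was the lowest STAT5 cKO library for Itgal in each medium.

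The positions of the genes follow the GRCm38 build used for the counts. Itgal (ENSMUSG00000030830, chromosome 7, 127296260 to 127335138), Itgam (ENSMUSG00000030786, chromosome 7, 128062640 to 128118491) and Itgax (ENSMUSG00000030789, chromosome 7, 128129547 to 128150657) lie on the plus strand of 1 chromosome, and Itgam ends just before Itgax starts. Itga6 (ENSMUSG00000027111, chromosome 2, 71745616 to 71858416), Itga4 (ENSMUSG00000027009, chromosome 2, 79255426 to 79333123) and Itgav (ENSMUSG00000027087, chromosome 2, 83724397 to 83806916) share another chromosome, also on the plus strand. Itga5 (ENSMUSG00000000555, chromosome 15, 103344286 to 103366763) is on the minus strand. The beta chains are apart from each other, with Itgb1 (ENSMUSG00000025809, chromosome 8, 128685654 to 128733200), Itgb2 (ENSMUSG00000000290, chromosome 10, 77530252 to 77565708) and Itgb5 (ENSMUSG00000022817, chromosome 16, 33829665 to 33949338) all on the plus strand. Exons of 1 other gene on the same strand, Gm49368 with at most 26 counts in a library, overlap those of Itgam. Itga4 and Itgav each overlap 1 gene on the opposite strand, Cerkl with at most 50 counts and Gm13684 with 0, and the counting used strand.

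Promoters are shown for 3 genes on which the comparisons turn: Itgam as the Mac-1 chain that marks the lineage, Itga5 as the chain with the largest response to both stimuli, and Itgav as the chain whose rmGM-CSF response differed between genotypes. RefSeq windows on GRCm38.p6 were on hand for 7 of the 10 genes (not for Itgal, Itga6 and Itgb2) and were read over the 250 bases before the start of the gene. They are the reference sequence and not that of BALB/c. Both strands were searched for TTCNNNGAA, the palindrome that STAT proteins bind, for TGANTCA, the AP-1 site, and for GAGGAA, a core of PU.1 sites, and no match overlapped a match of another motif. Capitals mark the matches, 5′ to 3′ on the strand of the gene.
Itgam, chr7:128062390-128062639, plus strand: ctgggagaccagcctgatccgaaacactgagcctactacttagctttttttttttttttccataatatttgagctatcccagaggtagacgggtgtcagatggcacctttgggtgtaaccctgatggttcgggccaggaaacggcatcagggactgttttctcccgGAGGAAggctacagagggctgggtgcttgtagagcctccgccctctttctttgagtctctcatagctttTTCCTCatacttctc
Itga5, chr15:103366792-103367041, minus strand: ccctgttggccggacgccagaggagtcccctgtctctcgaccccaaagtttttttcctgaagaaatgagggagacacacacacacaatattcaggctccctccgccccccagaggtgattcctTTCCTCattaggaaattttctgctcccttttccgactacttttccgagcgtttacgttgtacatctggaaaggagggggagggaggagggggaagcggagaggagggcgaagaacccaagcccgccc
Itgav, chr2:83724147-83724396, plus strand: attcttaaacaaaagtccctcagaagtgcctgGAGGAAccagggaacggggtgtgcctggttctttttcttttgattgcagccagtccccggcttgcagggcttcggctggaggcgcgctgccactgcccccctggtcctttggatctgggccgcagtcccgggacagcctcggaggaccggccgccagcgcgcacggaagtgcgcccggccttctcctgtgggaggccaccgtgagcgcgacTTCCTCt
TTCNNNGAA was in 0 of the 7 windows, against 7.02% of 32851 promoter windows of the same length. GAGGAA was in 4 of the 7 (Itgam, Itga5, Itgav and Itgb1), against 23.3% of all windows. On the other strand it reads TTCCTC. In Itgam it lay 84 and 15 bases before the start, in Itgav 218 and 7, and in Itga5 127. TGANTCA was in the Itgax window alone, 56 bases before the start, against 6.75% of all windows. These are letters in a short window, and binding was not measured.

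To determine how GM-CSF acts on these chains, rmGM-CSF was compared with DMEM within each genotype. In STAT5 fl/fl BMDMs 6 of the 10 chains changed, against 28.5% of all genes tested. Itga5, Itgax, Itgam and Itgb1 rose, and Itga6 and Itgb5 fell. In STAT5 cKO BMDMs 3 of the 10 were called, against 23.5% of all genes. They were Itga5, Itgav and Itgb1, and all of them rose, where 13.3% of all genes rose. The median log2 fold change of the 10 was 0.22 in STAT5 fl/fl and 0.24 in STAT5 cKO, where the median of all genes was -0.0062 and -0.0035. Both comparisons, and those with 4T1 CM, use the same DMEM libraries within a genotype.

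Among the partners of Itgb2, Itgax had the largest rise. It went from 24.1 and 17.3 CPM in the STAT5 fl/fl DMEM libraries to 47.4 and 42.7 with rmGM-CSF (log2 fold change 1.12, SE 0.18, adjusted p = 7.55e-05). In STAT5 cKO it went from 19.9, 21.1 and 27.1 to 32.8, 28.3 and 36.3 CPM in mice 114, 115 and 116 (log2 fold change 0.51, SE 0.15, adjusted p = 0.0123). Every library with rmGM-CSF was above every DMEM library of its genotype, but the STAT5 cKO difference missed the threshold. With the mouse as a block, a fit that compares the libraries of each mouse with each other, the STAT5 cKO difference passed it (log2 fold change 0.52, adjusted p = 5.46e-05), as it did in limma voom with a random term for the mouse (adjusted p = 0.00745), with DESeq2 (adjusted p = 0.00188) and without mouse 116 (adjusted p = 0.00812). Dendritic cells also carry CD11c, and the sum of their 6 markers was higher with rmGM-CSF too. This sum was 1.55 to 1.77 CPM in STAT5 fl/fl in DMEM and 9.12 to 10.7 CPM with rmGM-CSF. In STAT5 cKO it was 2.12 to 2.48 and 3.20 to 3.58 CPM. With 4T1 CM, where Itgax rose as well, the sum was 2.01 to 2.19 CPM in STAT5 fl/fl and 2.13 to 3.64 in STAT5 cKO. Only Zbtb46 (at most 3.86 CPM) and Batf3 (at most 7.14) passed the low-count filter. Flt3 stayed at or below 0.207 CPM and Xcr1 at or below 0.0537, and the part of such cells in the Itgax values was not tested.

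Itgam and Itgal, the other partners of Itgb2, moved less. In STAT5 fl/fl Itgam went from 126 and 128 CPM to 163 and 181 (log2 fold change 0.44, SE 0.12, adjusted p = 0.00544). Mice of the STAT5 cKO gave 119, 105 and 115 CPM in DMEM and 136, 138 and 134 with rmGM-CSF (log2 fold change 0.27, SE 0.094, adjusted p = 0.0377), which did not pass. The groups did not overlap in either genotype, and the STAT5 fl/fl call was lost on leaving out some mice, with adjusted p = 0.0463 without mouse 112, 0.139 without mouse 113 and 0.011 without mouse 116. Itgal had 42.6 and 38.6 CPM in STAT5 fl/fl DMEM libraries and 60.0 and 56.9 with rmGM-CSF (log2 fold change 0.53, SE 0.33, adjusted p = 0.226). Its levels in STAT5 cKO were 36.4, 70.3 and 64.4 CPM in DMEM and 60.3, 97.5 and 99.3 with rmGM-CSF (log2 fold change 0.58, SE 0.26, adjusted p = 0.0964). In each of the 5 mice Itgal was higher with rmGM-CSF than in DMEM, but mouse 114 started far below mice 115 and 116. With the mouse as a block both differences passed the threshold, in STAT5 fl/fl (log2 fold change 0.53, adjusted p = 0.000712) and in STAT5 cKO (log2 fold change 0.61, adjusted p = 2.09e-05), and so they did without mouse 114, at adjusted p = 0.00348 and 0.00311. Neither was called with a random term for the mouse.

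Among the partners of Itgb1, Itga5 had the largest change of the 10 chains. It stood at 193 and 185 CPM in STAT5 fl/fl DMEM libraries and at 677 and 684 with rmGM-CSF, 3.59-fold higher (log2 fold change 1.85, SE 0.069, adjusted p = 1.15e-12). In STAT5 cKO BMDMs it stood at 218, 237 and 236 and 725, 765 and 736 CPM, 3.22-fold higher (log2 fold change 1.69, SE 0.056, adjusted p = 3.06e-13). The rise was thus found in libraries with at most 3 counts of Stat5a and 4 of Stat5b. Itga6 fell in STAT5 fl/fl, from 79.9 and 82.6 CPM to 55.2 and 57.4 (log2 fold change -0.53, SE 0.11, adjusted p = 0.000651; adjusted p = 0.0121 without mouse 112 and 0.013 without mouse 113). In STAT5 cKO Itga6 had 77.8, 87.4 and 73.8 and 74.4, 80.9 and 67.5 CPM, with overlapping groups (log2 fold change -0.099, SE 0.084, adjusted p = 0.398). For Itga4 neither difference passed, with a log2 fold change of -0.25 (adjusted p = 0.0664) in STAT5 fl/fl and 0.10 (adjusted p = 0.379) in STAT5 cKO.

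Itgav responded in STAT5 cKO BMDMs. It had 178, 195 and 179 CPM in DMEM and 236, 284 and 256 with rmGM-CSF, higher in each mouse (log2 fold change 0.49, SE 0.078, adjusted p = 0.000101). In STAT5 fl/fl it had 189.7 and 188 CPM in DMEM and 177 and 170.0 with rmGM-CSF (log2 fold change -0.12, SE 0.096, adjusted p = 0.334). The rmGM-CSF libraries thus lay above the DMEM libraries in STAT5 cKO and below them in STAT5 fl/fl, where the difference did not pass the test.

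The beta chains had smaller changes than Itga5. Itgb1 rose in STAT5 fl/fl (628 and 642 to 773 and 837 CPM, log2 fold change 0.34, SE 0.064, adjusted p = 0.000402; adjusted p = 0.0356 without mouse 113). Its rise in STAT5 cKO (596, 601 and 624 to 704, 726 and 670.1 CPM, log2 fold change 0.21, SE 0.053, adjusted p = 0.00564) was lost on leaving out any 1 mouse, at adjusted p = 0.01002 without mouse 112, 0.0101 without mouse 113, 0.0594 without mouse 114, 0.08 without mouse 115 and 0.0111 without mouse 116. Itgb5 fell in STAT5 fl/fl, from 362 and 387 to 297 and 281 CPM (log2 fold change -0.37, SE 0.10, adjusted p = 0.00741; adjusted p = 0.0419 without mouse 112 and 0.213 without mouse 113), and its STAT5 cKO groups overlapped (log2 fold change -0.13, SE 0.084, adjusted p = 0.26). For Itgb2 the log2 fold change was 0.11 in STAT5 fl/fl (adjusted p = 0.384) and 0.22 in STAT5 cKO (adjusted p = 0.0279). With the mouse as a block 7 chains were called in STAT5 fl/fl and 5 in STAT5 cKO, where Itgax and Itgal were the added calls, and with the mouse as a random effect 6 and 4.

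**Figure D2:**
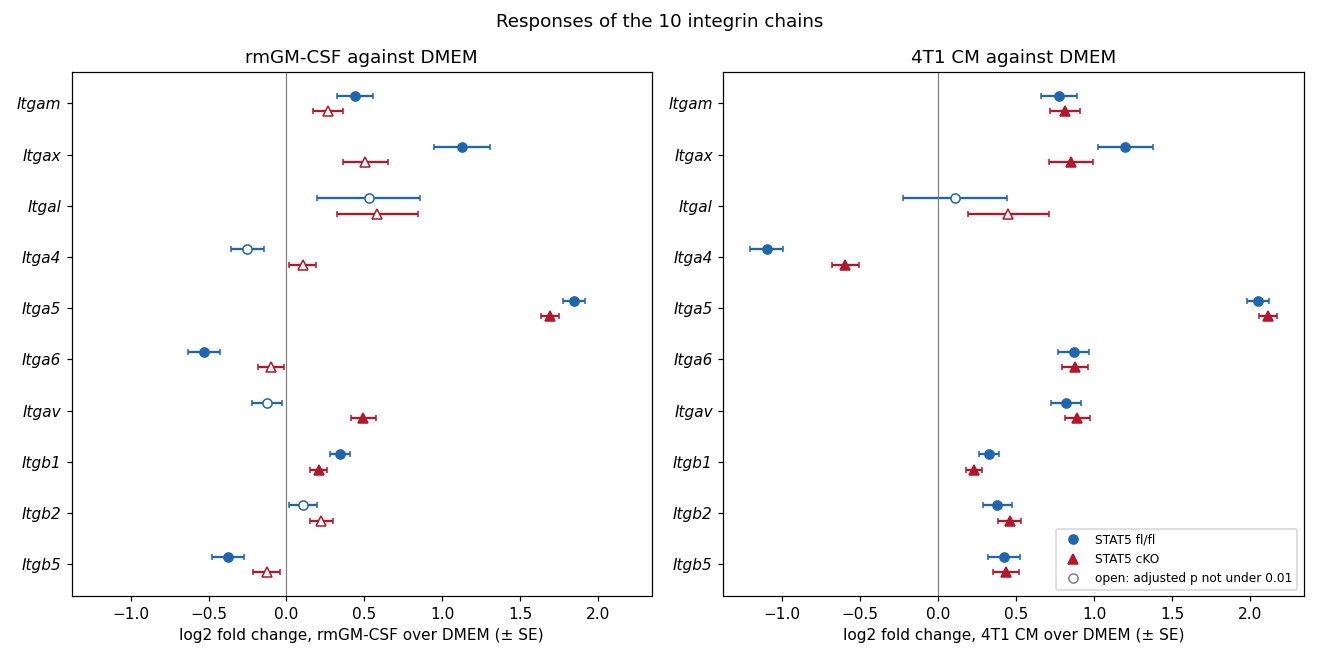
Log2 fold change of each integrin chain with rmGM-CSF (left) and 4T1 CM (right) over DMEM, with bars of 1 SE, in STAT5 fl/fl (blue circles, 2 libraries a group) and STAT5 cKO (red triangles, 3 libraries a group), filled where the adjusted p was under 0.01. Itga5 lies at 1.69 to 2.12 in the 4 comparisons, Itga4 is the lowest chain with 4T1 CM, and the genotypes part at Itgav with rmGM-CSF, at -0.12 and 0.49.

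4T1 CM was set against DMEM to see how the same chains differ in medium conditioned by a tumor line. No unconditioned control of the 4T1 medium is among the samples. Secreted factors and other differences between the conditioned medium and DMEM cannot be told apart. In both genotypes 9 of the 10 chains changed, against 37.4% of all genes in STAT5 fl/fl and 37.6% in STAT5 cKO, with Itgal as the exception in each. Itga5, Itgax, Itga6, Itgav, Itgam, Itgb5, Itgb2 and Itgb1 rose, and Itga4 fell. The median of the 10 was 0.60 in STAT5 fl/fl and 0.64 in STAT5 cKO on the log2 scale, where all genes had medians of 0.015 and 0.013.

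Itga5 again had the largest rise, to 816 and 752 CPM in STAT5 fl/fl, 4.14-fold over DMEM (log2 fold change 2.05, SE 0.07, adjusted p = 2.81e-13), and to 1019.8, 1021 and 954 CPM in STAT5 cKO, 4.34-fold (log2 fold change 2.12, SE 0.057, adjusted p = 7.72e-15). Itga4, which also pairs with Itgb1 and binds fibronectin, went the opposite way. It fell to 131 and 103 CPM from 258 and 245 in STAT5 fl/fl (log2 fold change -1.10, SE 0.11, adjusted p = 1.82e-07). The STAT5 cKO libraries gave 314, 296 and 264 CPM in DMEM and 176, 210.5 and 190.4 with 4T1 CM (log2 fold change -0.60, SE 0.086, adjusted p = 1.64e-05). No 4T1 CM library of either genotype reached the lowest DMEM library for Itga4.

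Itga6 and Itgav, receptors for laminin and for RGD proteins, rose in both genotypes. Itga6 reached 133 and 164 CPM in STAT5 fl/fl (log2 fold change 0.87, SE 0.10, adjusted p = 1.70e-06) and 144, 154 and 142 in STAT5 cKO (log2 fold change 0.88, SE 0.083, adjusted p = 1.05e-07). Itgav reached 334 and 332 CPM (log2 fold change 0.82, SE 0.096, adjusted p = 1.71e-06) and 296, 361 and 367 CPM (log2 fold change 0.89, SE 0.078, adjusted p = 4.11e-08). For both genes every 4T1 CM library was above every DMEM library.

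The partners of Itgb2 split. Itgam rose to 205 and 228 CPM in STAT5 fl/fl (log2 fold change 0.77, SE 0.11, adjusted p = 2.61e-05) and to 168, 238 and 190.2 in STAT5 cKO (log2 fold change 0.81, SE 0.094, adjusted p = 1.31e-06). Itgax rose to 51.7 and 43.0 CPM (log2 fold change 1.20, SE 0.18, adjusted p = 2.35e-05) and 39.4, 35.4 and 48.4 CPM (log2 fold change 0.85, SE 0.14, adjusted p = 8.54e-05). Itgal had 46.4 and 41.0 CPM in STAT5 fl/fl (log2 fold change 0.11, SE 0.33, adjusted p = 0.814) and 44.3, 109.6 and 80.1 in STAT5 cKO (log2 fold change 0.45, SE 0.26, adjusted p = 0.167), and its libraries overlapped with those in DMEM in both. Each STAT5 cKO mouse was higher for Itgal with 4T1 CM than in DMEM, and the difference passed with the mouse as a block (log2 fold change 0.42, adjusted p = 0.000419), not with the mouse as a random effect, and passed without mouse 114 (adjusted p = 0.0032).

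All 3 beta chains rose in both genotypes. Itgb2 reached 789 and 646 CPM in STAT5 fl/fl (log2 fold change 0.38, SE 0.092, adjusted p = 0.00244; adjusted p = 0.154 without mouse 112) and 888, 1019 and 841 in STAT5 cKO (log2 fold change 0.46, SE 0.075, adjusted p = 6.56e-05). Itgb5 reached 480.0 and 523 CPM (log2 fold change 0.42, SE 0.10, adjusted p = 0.00242; adjusted p = 0.0405 without mouse 112 and 0.0603 without mouse 113) and 376, 437 and 451 CPM (log2 fold change 0.43, SE 0.083, adjusted p = 0.000336). Itgb1 reached 796 and 793 CPM (log2 fold change 0.32, SE 0.064, adjusted p = 0.000478; adjusted p = 0.0207 without mouse 112 and 0.0135 without mouse 113) and 733, 687 and 715 CPM (log2 fold change 0.23, SE 0.052, adjusted p = 0.00152). The STAT5 cKO call for Itgb1 was lost without mouse 114 (adjusted p = 0.0342) and in a fit of the compared groups alone (adjusted p = 0.0108).

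Set directly against rmGM-CSF, 4T1 CM gave higher Itga6, Itgav and Itgb5 and lower Itga4 in both genotypes. In STAT5 fl/fl these were the 4 chains called, against 30.5% of all genes, and in STAT5 cKO 6 were called, against 34.1%, with Itga5 and Itgam added. Itga6 had the largest difference, 2.63-fold in STAT5 fl/fl (log2 fold change 1.40, SE 0.10, adjusted p = 1.12e-08) and 1.97-fold in STAT5 cKO (log2 fold change 0.98, SE 0.083, adjusted p = 4.23e-08). Itga4 was lower with 4T1 CM by a log2 fold change of -0.85 in STAT5 fl/fl and -0.70 in STAT5 cKO (adjusted p = 6.44e-06 and 3.66e-06). For Itgb5 the log2 differences were 0.80 and 0.56 (adjusted p = 8.10e-06 and 3.29e-05). For Itgav they were 0.94 and 0.40 (adjusted p = 5.48e-07 and 0.000436), and the second was lost without mouse 116 (adjusted p = 0.0143). Itga5 in STAT5 cKO had 0.43 (adjusted p = 5.57e-06) and Itgam 0.55 (adjusted p = 0.00013). With the mouse as a block, Itgal in STAT5 fl/fl was called lower with 4T1 CM (log2 fold change -0.42, adjusted p = 0.00402), and in STAT5 cKO Itgax and Itgb2 were called higher, at adjusted p = 0.00159 and 0.00726. None of these 3 was called with the mouse as a random effect.

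To see how the chains differ between genotypes, STAT5 cKO was compared with STAT5 fl/fl in each medium. The genotypes come from different mice, and STAT5 cKO mice also carry the Cre transgene. Loss of STAT5, the transgene and differences between the mice cannot be told apart. In DMEM 0 of the 10 chains passed, against 2.49% of all genes. By edgeR 4 had an unadjusted p under 0.05 (Itga4, Itga5 and Itgb2 higher and Itgb5 lower in STAT5 cKO), and DESeq2 and limma voom each called 1, Itga5, which just missed the threshold by edgeR (log2 fold change 0.28, SE 0.062, adjusted p = 0.012). With rmGM-CSF 4 chains were called, against 9.8% of all genes, and with 4T1 CM 3 were, against 7.7%. All of these were higher in STAT5 cKO, where 3.57% and 4.13% of all genes were called higher. No chain was called lower in STAT5 cKO in any medium. The sum of the 7 macrophage markers, of which Lyz2 is the largest, was also higher in STAT5 cKO in each medium. It was 24528 to 24924 CPM in STAT5 fl/fl and 31026 to 36741 in STAT5 cKO in DMEM, 25659 to 27100 and 34776 to 37853 in rmGM-CSF, and 28635 to 29661 and 36695 to 46408 in 4T1 CM. Over all 15 libraries Lyz2 ranged from 17036 to 34471 CPM, Csf1r from 3825 to 4204 and Cd68 from 1550 to 2033. The ranges of Adgre1 (769 to 1761), Cd14 (801 to 3952), Fcgr1 (101 to 468) and Mertk (12.6 to 43.2) were wider relative to their level. The part of this sum, or of any single marker, in the differences of the integrin chains was not tested.

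Itga4 was higher in STAT5 cKO with both stimuli. With rmGM-CSF the STAT5 fl/fl libraries had 211 and 211 CPM and the STAT5 cKO libraries 309.5, 333 and 296 (log2 fold change 0.57, SE 0.097, adjusted p = 0.000484). With 4T1 CM the values were 131 and 103 and 176, 210.5 and 190.4 CPM (log2 fold change 0.72, SE 0.099, adjusted p = 0.000101; adjusted p = 0.0122 without mouse 113). All STAT5 cKO libraries were above all STAT5 fl/fl libraries in both media.

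Itgb2 also was higher in STAT5 cKO with both stimuli. It had 606 and 582 CPM in STAT5 fl/fl and 770.3, 769.8 and 796 in STAT5 cKO with rmGM-CSF (log2 fold change 0.39, SE 0.085, adjusted p = 0.00363; adjusted p = 0.0146 without mouse 112, 0.0386 without mouse 113, 0.0133 without mouse 114 and 0.0138 without mouse 116). In 4T1 CM the levels were 789 and 646 and 888, 1019 and 841 CPM (log2 fold change 0.35, SE 0.084, adjusted p = 0.00894; adjusted p = 0.24 without mouse 113, 0.0205 without mouse 114 and 0.0548 without mouse 115), and a fit of these 2 groups alone gave an adjusted p = 0.114. In DMEM the log2 difference of Itgb2 was 0.27 (adjusted p = 0.0609). The Itgb2 libraries of the genotypes did not overlap in any medium.

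Itgav and Itga6 were higher in STAT5 cKO with rmGM-CSF. Itgav had 177 and 170.0 CPM in STAT5 fl/fl and 236, 284 and 256 in STAT5 cKO (log2 fold change 0.58, SE 0.089, adjusted p = 0.000166; adjusted p = 0.0156 without mouse 113). Itga6 had 55.2 and 57.4 and 74.4, 80.9 and 67.5 CPM (log2 fold change 0.40, SE 0.098, adjusted p = 0.00821; adjusted p = 0.0523 without mouse 112, 0.0364 without mouse 113, 0.0316 without mouse 114 and 0.03 without mouse 115). With 4T1 CM both genes had overlapping genotypes, with log2 differences of 0.036 for Itgav (adjusted p = 0.836) and -0.019 for Itga6 (adjusted p = 0.922). Itga5 was higher in STAT5 cKO with 4T1 CM (816 and 752 against 1019.8, 1021 and 954 CPM, log2 fold change 0.35, SE 0.061, adjusted p = 0.000892; adjusted p = 0.0522 without mouse 113 and 0.0382 in a fit of the 2 groups alone).

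Itgam, Itgax and Itgb1 lay lower in STAT5 cKO with rmGM-CSF without passing the threshold. Their log2 differences were -0.34 (adjusted p = 0.0336), -0.48 (adjusted p = 0.0468) and -0.20 (adjusted p = 0.0249), and in all 3 the STAT5 cKO libraries were below the STAT5 fl/fl libraries. Such separation does not set these 3 apart, since 9 of the 10 chains had no overlap in this comparison while 4 were called. The summed dendritic cell markers were lower in STAT5 cKO in this medium too, as given above. A fit of these 2 groups alone called Itgam and Itgax (adjusted p = 0.000737 and 0.00232), DESeq2 called Itgb1 (adjusted p = 0.00401), and Itgam was called without mouse 115 (adjusted p = 0.00943). For Itgal the genotypes overlapped in DMEM and 4T1 CM, where mouse 114 lay near the STAT5 fl/fl libraries and mice 115 and 116 above them. Without mouse 114 Itgal was called higher in STAT5 cKO in every medium, at log2 0.73 in DMEM (adjusted p = 0.00335), 0.75 with rmGM-CSF (adjusted p = 0.000568) and 1.12 with 4T1 CM (adjusted p = 3.60e-05). With all 3 mice the values were 0.49, 0.55 and 0.84, none of them called.

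**Figure D3:**
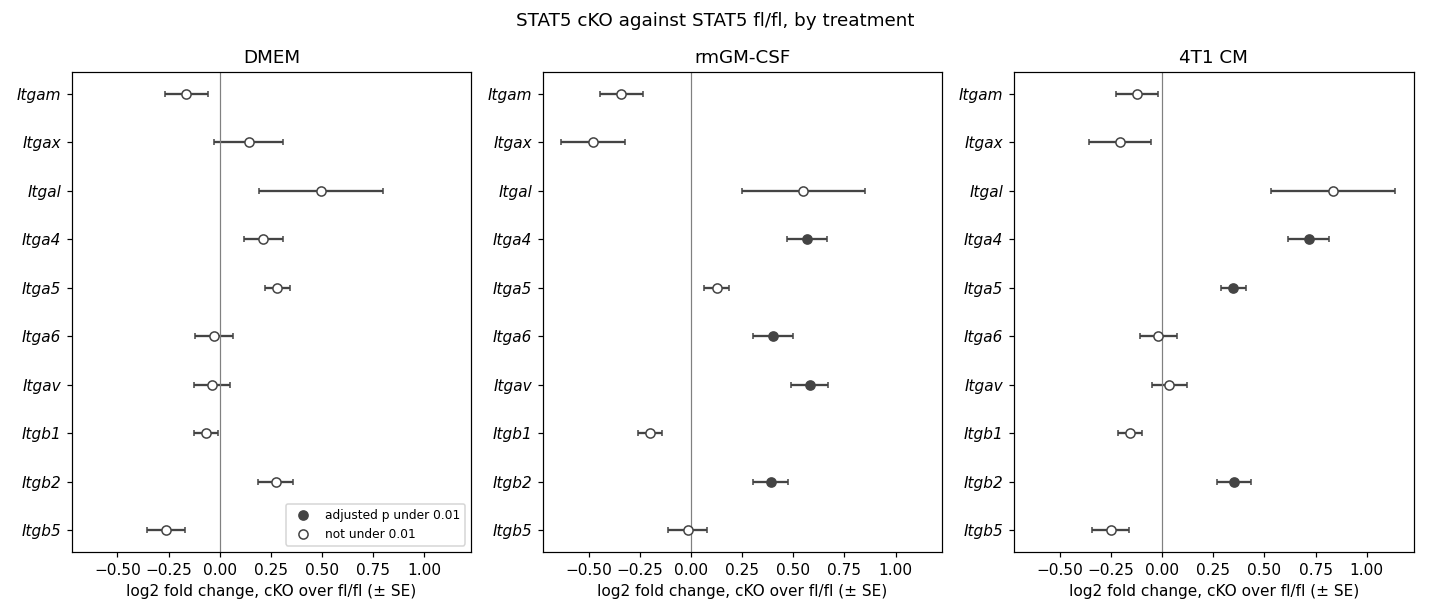
Log2 fold change of STAT5 cKO over STAT5 fl/fl for each integrin chain in DMEM, rmGM-CSF and 4T1 CM, with bars of 1 SE, 2 STAT5 fl/fl against 3 STAT5 cKO libraries in each, filled where the adjusted p was under 0.01. Itga4 and Itgb2 are filled with both stimuli, Itgav and Itga6 with rmGM-CSF and Itga5 with 4T1 CM, and no point is filled in DMEM.

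The difference between genotypes in a response was tested as an interaction. For rmGM-CSF it passed for 1 of the 10 chains, Itgav, against 3.11% of all genes (log2 difference 0.62, SE 0.12, adjusted p = 0.00497). This is the gap between a response of 0.49 in STAT5 cKO and -0.12 in STAT5 fl/fl. The call was lost on leaving out any of 4 mice, at adjusted p = 0.0802 without mouse 112, 0.124 without mouse 113, 0.0118 without mouse 115 and 0.022 without mouse 116, and leaving out a STAT5 fl/fl mouse leaves 1 library in each STAT5 fl/fl group. The next chains were Itga6 (log2 difference 0.43, SE 0.13, adjusted p = 0.0884), Itgax (log2 difference -0.62, SE 0.23, adjusted p = 0.175) and Itga4 (log2 difference 0.36, SE 0.14, adjusted p = 0.188), none of which passed. With the mouse as a block 2 chains passed, Itgav and Itgax (log2 difference -0.62, adjusted p = 0.00403), and with the mouse as a random effect 1, Itgav. For Itgax this is a response of 1.12 in STAT5 fl/fl and 0.51 in STAT5 cKO.

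For 4T1 CM 0 of the 10 chains had a response that differed between genotypes by edgeR, against 1.27% of all genes. Itga4 alone had an unadjusted p under 0.05 (log2 difference 0.50, SE 0.14, adjusted p = 0.0549). DESeq2 called it (adjusted p = 0.00875) and limma voom called 0. The other 9 chains had log2 differences between -0.35 (Itgax) and 0.34 (Itgal), with SEs from 0.083 to 0.42.

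Alpha and beta chains that pair were then set side by side per kilobase, as a description of RNA only. These ratios depend on the summed exon lengths too. The sum of Itga4, Itga5, Itga6 and Itgav over Itgb1 was 0.532 ± 0.019 (SD, n = 2) in STAT5 fl/fl BMDMs in DMEM, 0.89 ± 0.0462 in rmGM-CSF and 1.10 ± 0.0405 in 4T1 CM. In STAT5 cKO it was 0.628 ± 0.0302 (SD, n = 3), 1.20 ± 0.0374 and 1.52 ± 0.0883. The order DMEM, rmGM-CSF, 4T1 CM held in every mouse, and in each medium the STAT5 cKO libraries were above the STAT5 fl/fl libraries. Itga5 made up the bulk of the rise, since the alpha sum in STAT5 fl/fl went from 82.8 ± 1.69 to 215 ± 8.43 CPM per kb while Itga5 went from 38.4 ± 1.12 to 159 ± 9.30.

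For Itgb2 the alpha sum was far below the beta chain throughout. Itgam, Itgax and Itgal together over Itgb2 gave 0.197 ± 0.00601 in STAT5 fl/fl in DMEM, 0.27 ± 0.0152 in rmGM-CSF and 0.256 ± 0.0419 in 4T1 CM. The STAT5 cKO ratios were 0.164 ± 0.00723, 0.184 ± 0.0114 and 0.199 ± 0.0288, below every STAT5 fl/fl library of the same medium. The sums of the 3 alpha chains were 52.5 ± 1.48 CPM per kb in STAT5 fl/fl and 46.8 ± 3.37 in STAT5 cKO with rmGM-CSF, and 59.6 ± 1.33 and 59.9 ± 11.5 with 4T1 CM. Itgav over Itgb5 was 0.198 ± 0.00298 in STAT5 fl/fl and 0.299 ± 0.014 in STAT5 cKO with rmGM-CSF. Surface protein was not measured in these files.

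**Figure D4:**
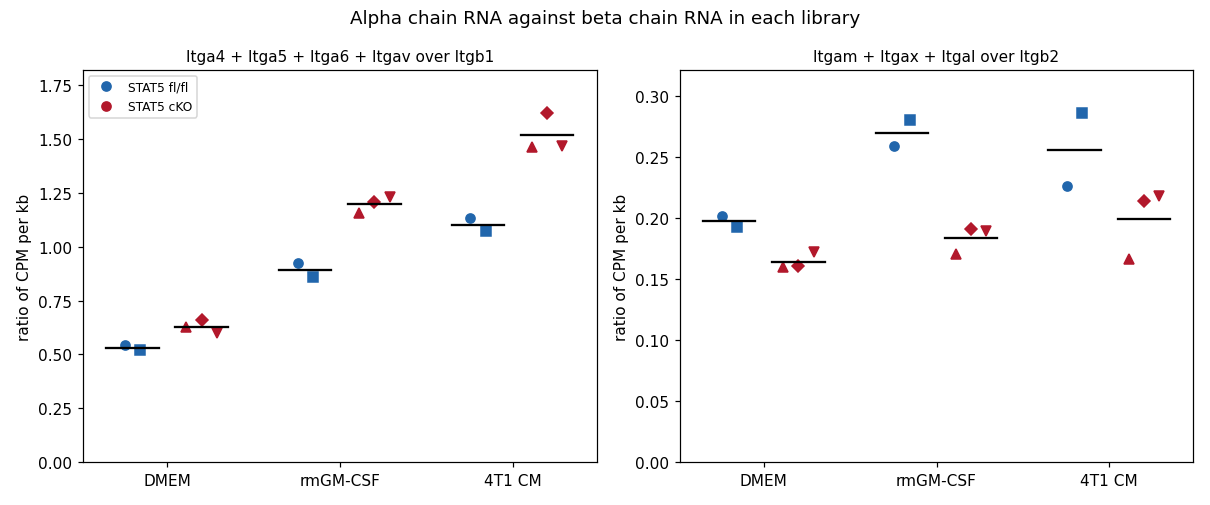
Ratio of summed alpha chain RNA to beta chain RNA (CPM per kb) in each library, with Itga4, Itga5, Itga6 and Itgav over Itgb1 on the left and Itgam, Itgax and Itgal over Itgb2 on the right, 1 point per library with the marker shape giving the mouse and a bar at the group mean. The left ratio goes from 0.519 to 0.658 in DMEM up to 1.07 to 1.62 with 4T1 CM, and the right ratio is lower in STAT5 cKO (red) than in STAT5 fl/fl (blue) in every medium.

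The genes with the most similar profiles were found by Pearson's r of log2 CPM over the 15 libraries, which share media and mice, so that r describes shared steps between groups and has no test here. With r in brackets, Itga5 was closest to Plec (0.993), Noct (0.99) and Dusp1 (0.989), where Plec is plectin, a cytoskeletal linker, and Dusp1 a phosphatase of MAP kinases. Itgam was closest to Zbp1 (0.978), Ms4a6d (0.964) and Glipr2 (0.962), and Itgax to Fyn (0.947), F2r (0.942) and F2rl2 (0.937), where Fyn is a Src family kinase and F2r and F2rl2 are thrombin receptors. For Itgav they were Il1rl2 (0.96), Ppif (0.959) and Elk3 (0.956), and for Itgb1 Arpc2 (0.977), Lcp1 (0.964) and Nras (0.963), where Arpc2 and Lcp1 act in actin assembly and bundling. For Itga4 they were Ecpas (0.964) and P2ry10b (0.963), for Itga6 Tnfaip8 (0.975), Pold4 (0.972) and Gtf2e2 (0.972), for Itgb2 Prokr1 (0.947) and Gpc1 (0.946) and for Itgb5 Tbl2 (0.955), AU020206 (0.944) and Ucp2 (0.94). Itgal had the weakest match, with Xpnpep1 (0.877), Cybb (0.87) and Prdx5 (0.853), where Cybb is a subunit of the phagocyte NADPH oxidase.

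Of 17 other integrin chains, 7 passed the low-count filter, and the other 10 stayed at or below 0.914 CPM in every library. Itgb7 (23.8 to 61.4 CPM), Itga9 (27.9 to 49.9) and Itgb3 (15.2 to 37.2) were expressed, and Itga1, Itga2b, Itga8 and Itgb8 stayed at or below 3.45 CPM. Itgb3, the beta chain of the classical vitronectin receptor with Itgav, rose with 4T1 CM in STAT5 fl/fl, from 22.4 and 17.7 to 37.2 and 26.7 CPM (log2 fold change 0.68, SE 0.18, adjusted p = 0.00459; adjusted p = 0.0294 without mouse 112). In STAT5 cKO it had 23.4, 29.4 and 32.1 and 32.1, 31.6 and 34.3 CPM (log2 fold change 0.21, SE 0.14, adjusted p = 0.242). Itga9 was lower in STAT5 cKO with 4T1 CM (log2 fold change -0.50, SE 0.11, adjusted p = 0.00627; adjusted p = 0.0904 without mouse 113, 0.0326 without mouse 115 and 0.0248 without mouse 116 and 0.0225 in a fit of the compared groups alone), and Itga8 was higher there at a low level (1.51 and 0.878 against 2.51, 3.45 and 3.40 CPM, log2 fold change 1.37, SE 0.30, adjusted p = 0.00438; adjusted p = 0.0132 without mouse 112, 0.104 without mouse 113, 0.018 without mouse 115 and 0.0183 without mouse 116). With rmGM-CSF 0 of the 7 were called in either genotype by edgeR, by unadjusted p or by DESeq2 and limma voom. By edgeR 28.5% of all genes were called in STAT5 fl/fl and 23.5% in STAT5 cKO.

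Among the ligands of integrins, Thbs1 and Icam1 had the largest named changes. With 4T1 CM 8 of 15 tested ligands rose and 0 fell in each genotype, where 19.2% of all genes rose and 18.2% fell in STAT5 fl/fl and 19.3% and 18.4% in STAT5 cKO. With rmGM-CSF 3 rose and 1 fell in STAT5 fl/fl (all genes 15.9% and 12.6%), and 4 rose in STAT5 cKO (all genes 13.3%, with 10.2% lower). These shares of all genes are the background for the lists that follow as well. The ligand that fell was Thbs1 (log2 fold change -0.83, SE 0.18, adjusted p = 0.0016; adjusted p = 0.0356 without mouse 113). Thbs1, thrombospondin-1, rose with 4T1 CM from 31.7 and 26.2 to 422 and 361 CPM in STAT5 fl/fl (log2 fold change 3.76, SE 0.17, adjusted p = 8.63e-12) and from 37.7, 29.7 and 34.5 to 905, 1137 and 1012 in STAT5 cKO (log2 fold change 4.91, SE 0.14, adjusted p = 1.87e-14). Icam1, the main counter-receptor of LFA-1 and Mac-1, rose with rmGM-CSF from 82.1 and 71.8 to 890.5 and 903 CPM in STAT5 fl/fl (log2 fold change 3.54, SE 0.13, adjusted p = 8.37e-13) and from 107, 107 and 115 to 679, 693 and 695 in STAT5 cKO (log2 fold change 2.65, SE 0.10, adjusted p = 1.86e-12). The stimuli thus differed at these ligands, with a log2 difference of 4T1 CM to rmGM-CSF of 4.59 and 4.62 for Thbs1 and of -2.92 and -2.38 for Icam1, all 4 called. Adam8, a membrane metalloprotease, and Tgfb1, whose latent form binds Itgav integrins, rose with both stimuli in both genotypes (for Tgfb1 with rmGM-CSF in STAT5 cKO, adjusted p = 0.00105, and 0.0132 without mouse 114 and 0.0315 without mouse 116), and Lamc1, a laminin chain, rose with 4T1 CM in both (0.91 and 1.25).

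Against STAT5 fl/fl, STAT5 cKO had 1 of the 15 ligands called in DMEM (Spp1, osteopontin, higher and named after its values were seen; all genes 0.938% higher), 5 with rmGM-CSF (4 higher; all genes 3.57%) and 4 with 4T1 CM (3 higher; all genes 4.13%). Thbs1 was higher in STAT5 cKO with rmGM-CSF (log2 fold change 1.36, SE 0.17, adjusted p = 2.05e-05) and with 4T1 CM (log2 fold change 1.38, SE 0.14, adjusted p = 3.34e-06). Tgfb1 was lower in both, at -0.67 and -0.28 (adjusted p = 3.31e-07 and 0.00456), the second of which was lost on leaving out any 1 mouse (adjusted p = 0.0118 without mouse 112, 0.109 without mouse 113, 0.0157 without mouse 114, 0.0312 without mouse 115 and 0.0136 without mouse 116), and Adam8 was higher with rmGM-CSF (log2 fold change 0.56, SE 0.069, adjusted p = 1.71e-05).

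Genes that switch integrins between their inactive and active state were called in both directions, at shares with 4T1 CM near the 37.4% and 37.6% of all genes. With 4T1 CM 6 of 14 were called in STAT5 fl/fl (3 higher and 3 lower) and 7 in STAT5 cKO (4 higher and 3 lower), and with rmGM-CSF 8 (5 higher) and 6 (4 higher). Cyth1, cytohesin-1, a binder of the Itgb2 tail, rose with 4T1 CM (1.17 in STAT5 fl/fl and 1.52 in STAT5 cKO), and with rmGM-CSF its values were -0.19 and -0.12, not called. Rap1b, the small GTPase of inside-out activation, and Flna, filamin A, which binds beta tails, rose in all 4 comparisons with DMEM. The 4T1 CM calls of Rap1b were lost in STAT5 fl/fl at adjusted p = 0.0223 without mouse 112 and 0.0317 without mouse 113, and in STAT5 cKO at 0.0325 without mouse 115 and 0.0292 without mouse 116. Apbb1ip (RIAM, the Rap1 effector that recruits talin) and Itgb1bp1 (ICAP-1, an inhibitor that binds the Itgb1 tail) fell with 4T1 CM in both genotypes, by log2 fold changes of -0.41 and -0.33 for Apbb1ip and -0.44 (adjusted p = 0.0349 without mouse 112 and 0.0144 without mouse 113) and -0.48 for Itgb1bp1. Between genotypes edgeR called 0 of the 14 in DMEM, rmGM-CSF or 4T1 CM, against 2.49%, 9.8% and 7.7% of all genes. By edgeR 2, 3 and 4 genes had an unadjusted p under 0.05, and DESeq2 called 0, 0 and 1 while limma voom called 0 in each.

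Adaptors that link integrins to actin were called higher more often than lower against DMEM, but not in the other comparisons. Of 17 tested, 7 rose and 1 fell with rmGM-CSF in STAT5 fl/fl and 8 rose in STAT5 cKO, and with 4T1 CM 9 rose and 3 fell in STAT5 fl/fl and 8 rose and 2 fell in STAT5 cKO. For 4T1 CM against rmGM-CSF 2 were higher and 7 lower in STAT5 fl/fl (all genes 13.8% and 16.7%) and 3 and 4 in STAT5 cKO (16.6% and 17.5%). In STAT5 cKO against STAT5 fl/fl 0 were higher, and 1, 3 and 2 were lower in DMEM, rmGM-CSF and 4T1 CM (all genes 1.55%, 6.24% and 3.57% lower). Vcl, vinculin, rose in all 4 comparisons (log2 1.02 for rmGM-CSF and 1.18 for 4T1 CM in STAT5 fl/fl, and 1.0 with either in STAT5 cKO). Pxn, paxillin, rose with 4T1 CM (1.12 and 1.46), and Crk with rmGM-CSF (0.56 and 0.36). Zyx, zyxin, a stress fibre protein, had 114 and 117 CPM in STAT5 fl/fl DMEM libraries and 349 and 359.6 with rmGM-CSF, against 100.4, 96.9 and 102 and 164, 153 and 173 in STAT5 cKO, so that STAT5 cKO was lower with rmGM-CSF (log2 fold change -1.12, SE 0.06, adjusted p = 5.90e-10). Tns1, tensin-1, fell with 4T1 CM from 148 and 167 to 42.3 and 41.2 CPM in STAT5 fl/fl and from 92.9, 88.5 and 74.5 to 46.3, 37.7 and 36.9 in STAT5 cKO (log2 fold change -1.92, SE 0.11, adjusted p = 2.56e-10 and log2 fold change -1.08, SE 0.091, adjusted p = 2.43e-08), and it was lower in STAT5 cKO already in DMEM (log2 fold change -0.89, SE 0.095, adjusted p = 3.60e-05).

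Kinases downstream of integrins were called in both directions. Of 11 tested, 5 rose and 3 fell with rmGM-CSF in STAT5 fl/fl and 6 rose and 1 fell in STAT5 cKO, while with 4T1 CM 5 rose and 2 fell in STAT5 fl/fl and 6 rose in STAT5 cKO. Between genotypes 1 of the 11 was lower in STAT5 cKO with each stimulus (all genes 6.24% lower for rmGM-CSF, 3.57% for 4T1 CM). The Src family kinases Lyn, Fgr and Src rose in all 4 comparisons with DMEM. Fgr had 2.64 and 1.43 CPM in STAT5 fl/fl DMEM libraries and 29.7 and 32.5 with 4T1 CM (log2 fold change 3.94, SE 0.28, adjusted p = 3.96e-09), and 3.08, 4.53 and 4.33 and 30.3, 52.2 and 45.9 in STAT5 cKO (log2 fold change 3.42, SE 0.20, adjusted p = 1.99e-10). Pik3cg, the catalytic subunit of PI3-kinase gamma, rose in all 4 as well but was lower in STAT5 cKO with rmGM-CSF (log2 fold change -0.67, SE 0.077, adjusted p = 7.31e-06) and with 4T1 CM (log2 fold change -0.35, SE 0.077, adjusted p = 0.0052; adjusted p = 0.0933 without mouse 113, 0.0338 without mouse 114 and 0.0266 without mouse 115). Its rise with rmGM-CSF in STAT5 cKO was lost at adjusted p = 0.0127 without mouse 115 and 0.0112 without mouse 116.

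Membrane proteins that sit beside integrins were called higher more often than lower against DMEM. Of 11 tested, 4 rose with rmGM-CSF in each genotype (all genes 15.9% and 13.3%), and with 4T1 CM 6 rose and 1 fell in each (all genes 19.2% and 19.3% higher). Plaur, the urokinase receptor, which binds Mac-1 and Itga5 integrins, rose from 40.6 and 45.9 CPM in STAT5 fl/fl DMEM libraries to 256 and 243 with rmGM-CSF and 284 and 258 with 4T1 CM, and in STAT5 cKO from 31.5, 31.0 and 36.9 to 165, 171 and 194 and 288, 296 and 286. Cd44, the hyaluronan receptor, rose in all 4 comparisons (log2 1.01 to 1.37). Cd47, the ligand of Sirpa and a partner of Itgav with Itgb3, rose with 4T1 CM (0.86 and 0.98), while Sirpa fell (-0.52 and -0.49). With rmGM-CSF 4 of the 11 were lower in STAT5 cKO and none higher (all genes 6.24% lower), and with 4T1 CM 2 were lower (all genes 3.57%), among them Cd151, a tetraspanin that binds laminin receptors, in both media (log2 -0.59 and -0.60, adjusted p = 3.68e-06 and 5.17e-06).

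**Figure D5:**
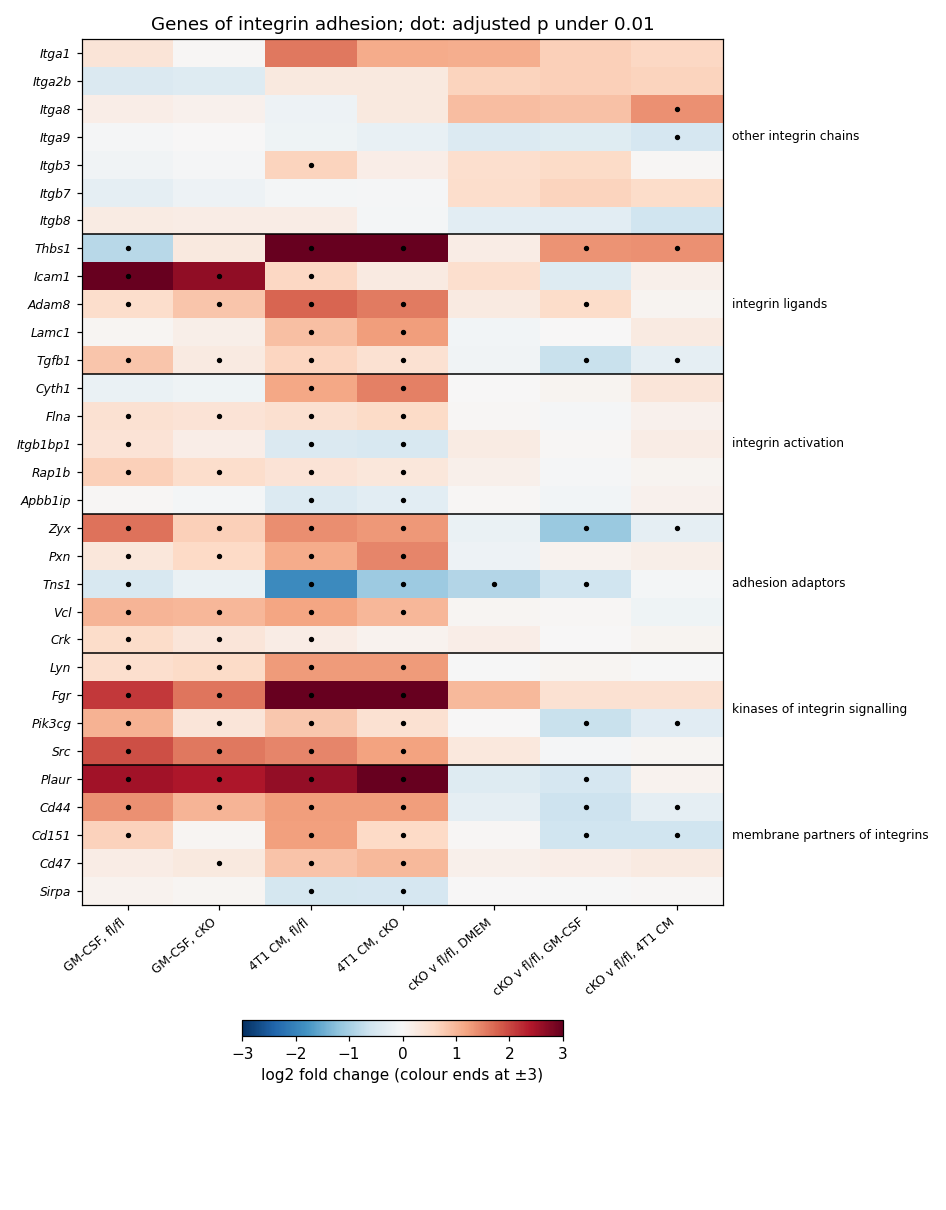
Log2 fold changes (colour, ending at 3 in either direction) of other integrin chains and of named genes of integrin adhesion in 7 comparisons, namely rmGM-CSF and 4T1 CM over DMEM in each genotype and STAT5 cKO over STAT5 fl/fl in each medium, with a dot where the adjusted p was under 0.01. Thbs1 stands out with 4T1 CM and Icam1 with rmGM-CSF, and Zyx, Cd44, Cd151, Tgfb1 and Pik3cg are lower in STAT5 cKO with both stimuli, where with 4T1 CM all of these but Cd151 lost the call on leaving out at least 1 mouse.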

How the data were processed

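RNA of BMDMs was sequenced as 15 stranded libraries, 5 mice with 3 media each. The authors deposited 1 table of raw counts per gene: per the labels, the study's methods and the file header, reads were trimmed (Trimmomatic 0.33), aligned to GRCm38 (HISAT2 2.1.0) and counted as strand-specific fragments with a mapping quality of at least 10 over Ensembl release 99 exons (featureCounts 1.6.2). Counts of fragments that fit several places equally well were thereby left out. The header names further libraries that were not analysed here.

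From these counts, 13005 genes (CPM above 1 in 2 or more libraries) were fitted with edgeR 4.0.16 in R 4.3.3 (quasi-likelihood F test, RLE normalization, 6 group means over all libraries). The p-values were adjusted by Benjamini and Hochberg over all 13005 genes, separately for each of 11 comparisons, and called at an adjusted p under 0.01. CPM values use the RLE-scaled library size, and CPM per kb divides by the summed length of all annotated exons of the gene. Values are given as mean ± SD, fold changes on the log2 scale with their SE. The biological coefficient of variation was 0.0787. Fragments carry no molecular identifiers, and depth covers counting error only. The main fit has no term for the mouse, and libraries of the same mouse are treated as independent. Its p-values thus reflect the spread of libraries within groups, pooled over the 6 groups of 1 experiment.

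The mouse number, taken from the sample titles, is the reason for the blocked fit. Deviations from the group means correlated between libraries of the same mouse at r of 0.0926 to 0.213 in STAT5 fl/fl (6 pairs) and 0.0548 to 0.214 in STAT5 cKO (9 pairs). Alternatives were TMM, no low-count filter, DESeq2 1.42.0, limma 3.58.1 voom with the mouse as a random effect, a threshold of 0.05, the compared groups alone, each mouse left out and, chosen after the data were seen, the legacy form of the test. The procedure was tested on simulated data first, with 200 of 13005 genes changed. At a simulated log2 fold change of 0.5, edgeR recovered 28.5% of them for rmGM-CSF in STAT5 fl/fl, with 1.72% of calls false. Between genotypes with rmGM-CSF it recovered 43.5%, with 3.33% false. DESeq2 recovered 44.5% and 52%, with 5.32% and 5.45% false. For the difference between genotypes in the rmGM-CSF response, at log2 1, edgeR recovered 68.5% with 1.44% false. Each of these false shares was above the adjusted p threshold of 0.01. The 200 changed genes are a far smaller share than the 28.5% of genes called for rmGM-CSF in STAT5 fl/fl. Whether the simulated shares carry over to the measured libraries, which share mice, was not tested.

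The 10 genes and the gene lists were chosen with earlier results of these data known. Named were the 10 chains, Stat5a, Stat5b, other integrin chains past the filter, up to 5 genes per further list with the smallest adjusted p over the 11 comparisons, and per chain the 3 genes with the highest r; 3 genes that this rule names are not reported here. Gene symbols came from an Ensembl identifier table that matched 55144 of 55385 identifiers.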

Additional observations from a re-analysis of the deposited data

Results flagged for a closer look

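The groups hold 2 or 3 libraries, too few to test a single library for standing apart. Results are listed here because the response to a stimulus differed between STAT5 cKO and STAT5 fl/fl in a test of the difference itself (edgeR, adjusted p under 0.01), first among the 10 integrin chains and then among the named genes of the adhesion lists.

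Itgav was the integrin chain with such a difference, for rmGM-CSF. Its response was higher by 0.62 (SE 0.12, adjusted p = 0.00497) on the log2 scale in STAT5 cKO, where it was higher with rmGM-CSF than in DMEM in 3 of 3 mice, than in STAT5 fl/fl, where it was lower in 2 of 2. It kept the call with the mouse as a block (0.61) and lost it on leaving out mouse 112, 113, 115 or 116.

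Zyx responded less to rmGM-CSF in STAT5 cKO, by -0.91 (adjusted p = 3.39e-06), and kept the call under all 13 alternatives. Pik3cg had a difference of -0.68 (adjusted p = 0.000863) and kept the call under all 13 as well. For Tgfb1 it was -0.57 (adjusted p = 0.000398, and 0.0186 without mouse 112) and for Icam1 -0.89 (adjusted p = 0.00142, and 0.0195 without mouse 112 and 0.0831 without mouse 113). Thbs1 fell with rmGM-CSF in STAT5 fl/fl by a log2 fold change of -0.83 and had 0.29 in STAT5 cKO, which was not called, a difference of 1.12 (adjusted p = 0.00531, and 0.0205 without mouse 112, 0.0655 without mouse 113 and 0.0224 without mouse 116) and its rise with 4T1 CM was larger in STAT5 cKO by 1.15 (adjusted p = 0.00368, and 0.031 without mouse 112, 0.0343 without mouse 113, 0.0157 without mouse 115 and 0.0211 without mouse 116). Cd151 had a smaller response to rmGM-CSF by -0.62 (adjusted p = 0.000369, and 0.0198 without mouse 112 and 0.012 without mouse 113) and to 4T1 CM by -0.62 (adjusted p = 0.000764, and 0.0206 without mouse 112, 0.0361 without mouse 113 and 0.0109 without mouse 115). The difference of Tns1 for 4T1 CM was 0.84 (adjusted p = 0.00268, and 0.0284 without mouse 112 and 0.144 without mouse 113, and 0.0151 in a fit of the compared groups alone). What lies behind these differences was not tested.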

How the results depend on the processing

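Of 45 called pairs of an integrin chain and a comparison, 28 kept their call under every alternative, 17 lost it under at least 1, each of them on leaving out a mouse, and 0 changed direction. Of 150 such pairs of named list genes, 117 kept the call throughout and 0 changed direction. TMM and the legacy form of the test changed no count of chains. With the mouse as a replicate block, the paired fit, 5 chains in place of 3 were called for rmGM-CSF in STAT5 cKO and 2 in place of 1 for the difference between genotypes in the rmGM-CSF response, and counts for the other comparisons stayed within 1.5 times. At an adjusted p under 0.05, 6 chains were called for rmGM-CSF in STAT5 cKO, 7 for 4T1 CM against rmGM-CSF in STAT5 fl/fl, 1 for STAT5 cKO against STAT5 fl/fl in DMEM and 7 for the same with rmGM-CSF. The compared groups alone gave 6 for rmGM-CSF in STAT5 cKO and 1 in place of 3 for STAT5 cKO against STAT5 fl/fl with 4T1 CM. For the genotypes in DMEM no filter, DESeq2 and limma voom each gave 1 in place of 0, and DESeq2 gave 1 in place of 0 for the difference in the 4T1 CM response. The cause of these shifts was not tested.

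Leaving out each mouse gave 2 to 7 chains for rmGM-CSF in STAT5 fl/fl, 0 to 1 for the genotypes in DMEM, 1 to 4 with rmGM-CSF and 0 to 3 with 4T1 CM, and 0 to 1 for the difference in the rmGM-CSF response. Without mouse 113, 0 chains passed for the genotypes with 4T1 CM. Leaving out a STAT5 fl/fl mouse leaves single libraries that are assumed to vary like the others. Other scalings moved 25 of 144 group means and ratios by at least 1 SD, by factors of 0.948 to 1.07. With 2 STAT5 fl/fl libraries a group, a difference that missed the threshold is not shown to be absent.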
